A study of Homo sapiens with 6 samples.

Results

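The 9 interferon-stimulated genes described here were IFIT1, IFIT2, IFIT3, IFI6, ISG15, OAS1, MX1, IRF1 and IRF9. They were found by symbol, each listed once among the 26255 genes of the deposited tables. The rule that names them uses no measured value, but earlier results of these data were known when they were chosen. The cells were 22RV1, an established human line of castration-resistant prostate cancer (CRPC), kept in RPMI medium with fetal bovine serum. One group of 3 samples received the vehicle DMSO and the other group of 3 samples received 10 nM bruceantin (BCT), a plant quassinoid known as an inhibitor of protein synthesis, in each case for 24 h. The labels name no added interferon and no genetic change in either group, so every value below is a level in unstimulated cells of a single line. The labels do not say whether the samples of a group came from separate cultures, so p-values measure the spread between these samples, which may be technical.

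Type I interferons bind the receptor chains IFNAR1 and IFNAR2, which activate the kinases JAK1 and TYK2. These phosphorylate STAT2, which joins IRF9 in the ISGF3 complex, and ISGF3 binds the interferon-stimulated response element (ISRE) in the promoters of its target genes. Interferon gamma acts through its own receptor, JAK1 and JAK2, and its targets, with IRF1 a classic one, are known for the gamma-activated site (GAS). IFIT proteins bind foreign RNA, OAS1 makes oligoadenylate on meeting viral RNA, MX1 is a GTPase that blocks virus replication, ISG15 is a ubiquitin-like protein joined to other proteins, and IFI6 is a small membrane protein of mitochondria and the endoplasmic reticulum. Many cells that meet no interferon still keep low levels of some of these transcripts.

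The promoter letters that match these response elements are shown first for 7 members, which did not all hold the same element. The RefSeq promoter table for GRCh38.p14, with 250 bases before to 50 after each gene start, held 8 of the 9 members, all but IFIT2. An ISRE-like match was taken as GAAANNGAAA and a GAS-like match as TTCNNNGAA, on either strand, and a base could belong to both. Capitals mark the matches, and 15 bases on each side are shown.
ISG15, chr1:1013369-1013414, plus strand: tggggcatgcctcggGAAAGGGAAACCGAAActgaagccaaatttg
IFIT1, chr10:89392492-89392544, plus strand: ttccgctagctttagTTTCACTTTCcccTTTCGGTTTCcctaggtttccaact
IFIT3, chr10:89332420-89332502, plus strand: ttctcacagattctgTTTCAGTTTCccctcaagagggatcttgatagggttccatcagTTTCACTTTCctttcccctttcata
IFI6, chr1:27672261-27672363, minus strand: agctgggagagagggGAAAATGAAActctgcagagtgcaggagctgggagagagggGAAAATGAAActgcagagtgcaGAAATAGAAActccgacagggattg
MX1, chr21:41431839-41431884, plus strand: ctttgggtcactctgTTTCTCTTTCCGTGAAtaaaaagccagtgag
IRF1, chr5:132490874-132490912, minus strand: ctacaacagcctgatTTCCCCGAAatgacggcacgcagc
IRF9, chr14:24161187-24161225, plus strand: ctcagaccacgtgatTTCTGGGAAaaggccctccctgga

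ISG15, IFIT1 and IFIT3 each held 2 ISRE-like matches in the stretch shown, IFI6 held 3, and in MX1 an ISRE-like match overlapped a GAS-like match. MX1 had 3 promoters in the table, and its stretch comes from a single one. Another MX1 promoter held an ISRE-like match past its start, which is not shown. IRF1 and IRF9 held a GAS-like match and no ISRE-like match in the window. The ISG15 stretch ran from 128 to 83 bases before the start, the IFIT1 stretch from 131 to 79 and the IRF9 stretch from 78 to 40. Of 35116 promoters of this length in the table, 3.57% held an ISRE-like match, and by gene it was 4.38% of 27305 genes against 5 of the 8 members. A GAS-like match was in the promoters of 9.38% of genes and of 4 of the 8 members. The looser NF-kB-like letters GGGNNNNNCC were in the promoters of 61.7% of genes and of 6 of the 8 members. These matches describe letters in a window and are not measured sites.

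RNA was measured by unstranded polyA RNA-seq and deposited as FPKM, a count of fragments scaled to transcript length and to the size of the library, so levels of different genes can be compared per length. A gene was tested where its mean over the 6 samples was at least 1 FPKM, and it was called changed where limma gave an adjusted p under 0.05 and an absolute log2 fold change over 0.85 on log2(FPKM + 0.1). Of 12729 genes tested, 4027 (31.6%) were called, 1764 of them (13.9%) higher with BCT and 2263 (17.8%) lower, and in 10854 (85.3%) the 3 BCT values lay wholly above or below the 3 DMSO values. The FPKM of a DMSO sample added up to 1169650 at the least and 1572320 at the most, those of a BCT sample to 757534 and 799838, and 1 short RNA gene, MIR6087, made up 43.5% to 55.3% of that total in the DMSO samples and 31.7% to 32.5% in the BCT samples. Rescaling every sample to an equal sum moved the all-gene median of the log2 differences from -0.04 to 0.72 and the calls to 5614 higher and 668 lower, and without MIR6087 in the sum the median was 0.34 with 3370 higher and 1208 lower. The BCT replicate 1 sample correlated with the DMSO samples at a mean r of 0.893 on the log2 scale, against 0.853 and 0.854 for the other BCT samples.

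Of the 9 members, ISG15 was abundant, IRF9 was at a few FPKM, and IRF1 and MX1 were just above 1 FPKM. IFI6 was under 1 FPKM in every sample, and IFIT1, IFIT2, IFIT3 and OAS1 were near 0, at or under 0.171 FPKM in every sample. Hence 4 of the 9 passed the filter on low values and 1 of these 4, IRF9, was called, against 31.6% of all genes tested. In the DMSO samples the order of mean FPKM was ISG15, IRF9, IRF1, MX1, IFI6, IFIT3, OAS1, IFIT2 and IFIT1. The neighbours IFIT3 and OAS1, and OAS1 and IFIT2, overlapped in that order. With BCT the first 5 places and the last were held by the same genes, with OAS1, IFIT2 and IFIT3 between them and overlapping from each to the next. The 5 members with an ISRE-like match ranged from 0.016 FPKM (IFIT1) to 361.6 FPKM (ISG15), so genes with the same promoter letters stood at both ends of the order.

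**Figure D1:**
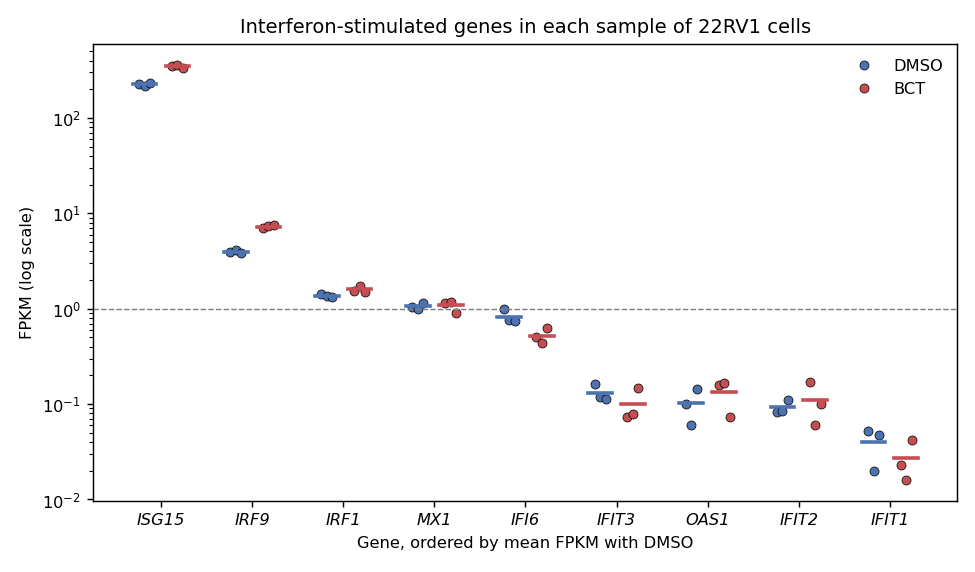
FPKM of the 9 interferon-stimulated genes in each 22RV1 sample on a log axis, with DMSO in blue, BCT in red, a horizontal bar at each group mean (n = 3) and a dashed line at 1 FPKM, the filter on low values. In these values as deposited, ISG15 and IRF9 lie higher in all 3 BCT samples and IFI6 lies lower in all 3. The IFIT genes and OAS1 lie at or under 0.171 FPKM in both groups.

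ISG15, the ubiquitin-like modifier, measured 226.7, 217.2 and 232.1 FPKM in the 3 DMSO samples and 351.6, 361.6 and 331.1 FPKM in the 3 BCT samples. All 3 BCT samples were above all 3 DMSO samples. The mean level was 225.4 ± 7.55 FPKM with DMSO and 348.1 ± 15.6 FPKM with BCT (SD, n = 3 each), a ratio of 1.54. On the log2 scale the difference was 0.63 (SE 0.053), with an adjusted p of 9.57e-06 by limma, so ISG15 was higher by more than the spread between samples but under the fold change needed for a call. It stood above 98.4% of all genes in each DMSO sample and above 99.2% in each BCT sample. Under equal sums, equal sums without MIR6087 and quantile normalization the difference was 1.40, 1.01 and 0.98 and ISG15 was called, and its excess over the median of all genes was 0.66 as deposited, 0.68 and 0.67 under the equal sums and 0.95 after quantile normalization.

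IRF9, the DNA-binding subunit of ISGF3, measured 3.90, 4.12 and 3.87 FPKM with DMSO and 6.97, 7.29 and 7.52 FPKM with BCT. The groups did not overlap. The mean level was 3.96 ± 0.138 FPKM with DMSO and 7.26 ± 0.277 FPKM with BCT (SD, n = 3 each), a ratio of 1.83. IRF9 rose by 0.86 on the log2 scale (SE 0.065, 95% interval from 0.71 to 1.01, adjusted p 5.31e-06), and it was called. This value was next to the limit of 0.85. The call was lost without DMSO replicate 1 (0.845), without DMSO replicate 3 (0.841), without BCT replicate 3 (0.831), with a pseudocount of 1 (0.73) and in a test against the limit itself. The adjusted p by limma for a difference from 0 was at most 0.000153 over all alternatives but the last. The lowest, 1.47e-20, came under equal sums and is not read as stronger evidence from these 6 samples.

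IRF1, a transcription factor induced mainly by interferon gamma, measured 1.43, 1.35 and 1.31 FPKM with DMSO and 1.54, 1.74 and 1.51 FPKM with BCT. The BCT values lay above the DMSO values in every sample, by a narrow gap. The mean level was 1.36 ± 0.0569 FPKM against 1.60 ± 0.125 FPKM (SD, n = 3 each), and the log2 difference of 0.21 (SE 0.12, interval from -0.07 to 0.49) did not pass the test, with an adjusted p of 0.145. Under equal sums the difference was 0.93 and IRF1 was called.

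MX1, the antiviral GTPase, measured 1.05, 0.995 and 1.15 FPKM with DMSO and 1.16, 1.18 and 0.910 FPKM with BCT. The groups overlapped, and BCT replicate 3 was the lowest of the 6 samples. The mean level was 1.07 ± 0.0786 FPKM against 1.08 ± 0.149 FPKM (SD, n = 3 each), a log2 difference of 0.015 (SE 0.17) with an interval from -0.36 to 0.40 and an adjusted p of 0.934. Under equal sums the difference was 0.72 (adjusted p 0.0209, not called) and without MIR6087 in the sum 0.37 (adjusted p 0.0664), each next to the all-gene median of that scaling. In the values as deposited the sign of the difference turned when DMSO replicate 2, BCT replicate 1 or BCT replicate 2 was left out (-0.028, -0.036 and -0.043).

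IFI6 measured 0.987, 0.762 and 0.738 FPKM with DMSO and 0.504, 0.438 and 0.628 FPKM with BCT. As deposited, every BCT value was below every DMSO value, and the means were 0.829 ± 0.137 FPKM and 0.523 ± 0.0965 FPKM (SD, n = 3 each). IFI6 was not fitted under the other scalings, and equal sums moved the median of all genes tested from -0.04 to 0.72. The direction of IFI6 under equal sums was not determined. The gene was below the filter. In the fit without a filter, which called 25.2% of 21543 genes, its log2 difference was -0.58 (SE 0.18, adjusted p 0.0242), and it was not called. None of the 5 members below the filter was called in that fit at an adjusted p under 0.05 and the fold change limit together. IFI6 was the sole one of the 5 with an adjusted p under 0.05. The pseudocount shrinks differences at such low values, so the lack of a call says little for IFIT1, IFIT2, IFIT3 and OAS1.

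IFIT3 measured 0.164, 0.118 and 0.113 FPKM with DMSO and 0.073, 0.078 and 0.148 FPKM with BCT, and IFIT2 measured 0.083, 0.085 and 0.111 FPKM with DMSO and 0.171, 0.060 and 0.10 FPKM with BCT. OAS1 measured 0.101, 0.061 and 0.144 FPKM with DMSO and 0.159, 0.165 and 0.074 FPKM with BCT. IFIT1, the lowest member, measured 0.052, 0.020 and 0.047 FPKM with DMSO and 0.023, 0.016 and 0.042 FPKM with BCT. The groups overlapped for all 4 genes. In the fit without a filter their log2 differences ran from -0.23 for IFIT3 to 0.20 for OAS1, with adjusted p from 0.312 to 0.707. The pseudocount of 0.1 FPKM is of the size of these values and shrank the differences. With it, IFIT1 could not have been called lower even at 0 in every BCT sample. By the ratio of means IFIT1 was the lowest, at 0.68, and IFIT3 was at 0.76. At these levels a change could not be told from the spread between samples. FPKM does not carry the number of reads, and how few reads stand behind these 4 values was not determined.

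**Figure D2:**
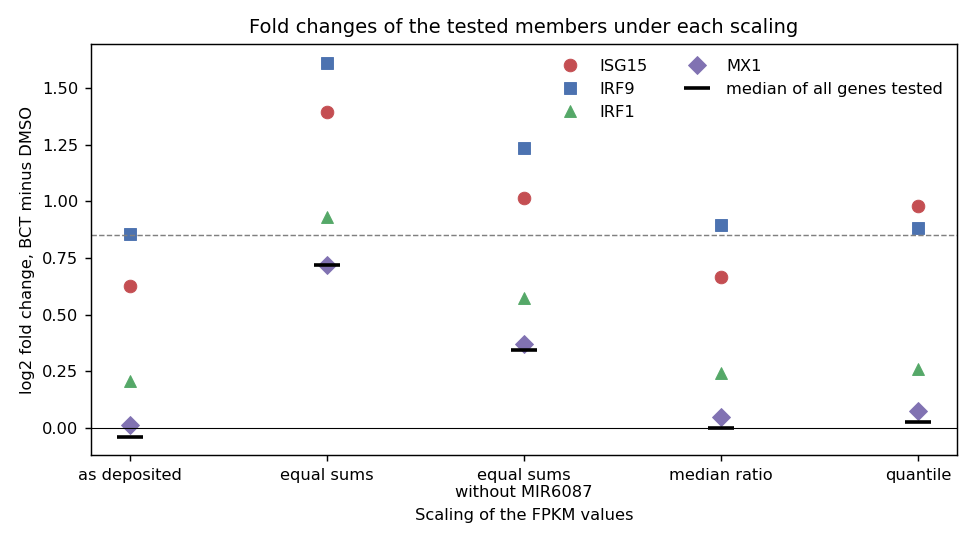
log2 fold change, BCT minus DMSO, of the 4 tested members under each scaling of the FPKM values, with a black bar at the median of all genes tested and a dashed line at the fold change limit of 0.85. ISG15 and IRF9 lie above the all-gene median under every scaling drawn, and MX1 lies next to it.

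The positions below are on hg19, with 1 added to the deposited starts, which then equal the GENCODE transcript starts more often (in 7961 of 22422 matched genes) than the deposited starts do (857). All 9 members were protein-coding genes in GENCODE. The IFIT2, IFIT3 and IFIT1 genes lie in that order on the plus strand, at chr10:91061706-91069033, chr10:91087576-91100725 and chr10:91152303-91166244, and the span of LIPA, on the minus strand, overlaps all 3 of them. ISG15 is at chr1:948847-949919 on the plus strand and no other annotated gene overlaps it. IRF9 is at chr14:24630422-24635774 on the plus strand and is overlapped by an unnamed gene on each strand. IRF1, at chr5:131817301-131826465 on the minus strand, is overlapped by IRF1-AS1 and an unnamed gene on the plus strand. IFI6 at chr1:27992572-27998724 on the minus strand, OAS1 at chr12:113344739-113357712 on the plus strand and MX1 at chr21:42792485-42831141 on the plus strand are each overlapped by an unnamed gene on the opposite strand, and the end of IFI6 also by LINC02574 on its own strand. These overlaps are of whole gene spans, and whether exons overlap was not checked. Where exons on opposite strands do overlap, their reads cannot be told apart, because the kit does not mark strand.

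The interferon ligands, which start the pathway, were near 0. Of 21 listed ligand genes 17 were listed at 0 in all 6 samples, none passed the filter, and the highest single value was 0.086 FPKM, for IFNG with BCT. IFNG was listed at 0 in the 3 DMSO samples and at 0.046, 0.086 and 0.043 FPKM in the BCT samples. IFNE had 0.019, 0.022 and 0.022 FPKM with DMSO and was listed at 0 in the BCT samples, and IFNK and IFNL1 were above 0 in a single BCT sample each.

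Of the 6 receptor genes, all of which were tested, 1 was called lower and none higher, beside 17.8% and 13.9% of all genes tested. The median log2 difference was -0.05, against -0.04 for all genes tested. Under equal sums 3 were called higher and none lower, and without MIR6087 in the sum 2 higher and 1 lower. The counts over all 12729 genes tested were then 5614 higher and 668 lower, and 3370 higher and 1208 lower. The receptor median was 0.72 under equal sums and 0.34 without MIR6087 in the sum, each next to the all-gene median. IFNAR2, a chain of the type I receptor, fell by 1.59 on the log2 scale (SE 0.12, adjusted p 4.78e-06), from 12.4 ± 0.355 FPKM to 4.08 ± 0.780 FPKM (SD, n = 3 each), and was not called under equal sums (-0.83). Its partner IFNAR1 measured 14.2 FPKM with DMSO and 11.8 FPKM with BCT, a log2 difference of -0.26 that turned to 0.51 under equal sums and to 0.13 without MIR6087 in the sum. IFNGR1, the ligand-binding chain for interferon gamma, measured 13.2 FPKM with DMSO and 23.7 FPKM with BCT, a log2 difference of 0.84 that stood just under the limit and passed it without DMSO replicate 1 (0.89), without BCT replicate 1 (0.89), with median-ratio scaling (0.87) and under both equal sums (1.60 and 1.22). IFNGR2 went from 26.02 to 20.5 FPKM (log2 difference -0.34, but 0.42 and 0.04 under the equal sums), IFNLR1 of the lambda receptor from 3.09 to 5.51 FPKM (0.81, and past the limit without BCT replicate 1 at 0.86 and under the equal sums at 1.56 and 1.19) and IL10RB from 16.0 to 17.9 FPKM (0.16, and 0.93 and called under equal sums).

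Of the 3 kinases and STAT2, JAK1 was called higher and STAT2 lower, and the other kinases were not called. JAK1, the kinase that all interferon receptors share, measured 0.690, 0.867 and 0.875 FPKM with DMSO and 4.46, 5.67 and 6.20 FPKM with BCT. No DMSO sample reached 1 FPKM and every BCT sample was above 4 FPKM. JAK1 thus passed the filter on low values only through its BCT samples. JAK1 rose from 0.811 ± 0.105 FPKM to 5.45 ± 0.892 FPKM (SD, n = 3 each), by 2.60 on the log2 scale (SE 0.15, adjusted p 1.55e-06). STAT2, which carries the activation domain of ISGF3, measured 9.93, 10.2 and 10.1 FPKM with DMSO and 5.09, 4.13 and 4.28 FPKM with BCT. The BCT samples were all below the DMSO samples, STAT2 fell by 1.15 on the log2 scale (SE 0.084, adjusted p 4.27e-06), and the call was lost under equal sums (-0.40) and equal sums without MIR6087 (-0.77). TYK2 measured 16.6 FPKM with DMSO and 12.03 FPKM with BCT (log2 difference -0.46, and 0.30 under equal sums). JAK2 measured 2.82 and 5.05 FPKM (0.82, not called, but called under equal sums at 1.566, without MIR6087 in the sum at 1.19 and with median-ratio scaling at 0.854). Of these partners in ISGF3, IRF9 was called higher and STAT2 lower in the values as deposited.

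**Figure D3:**
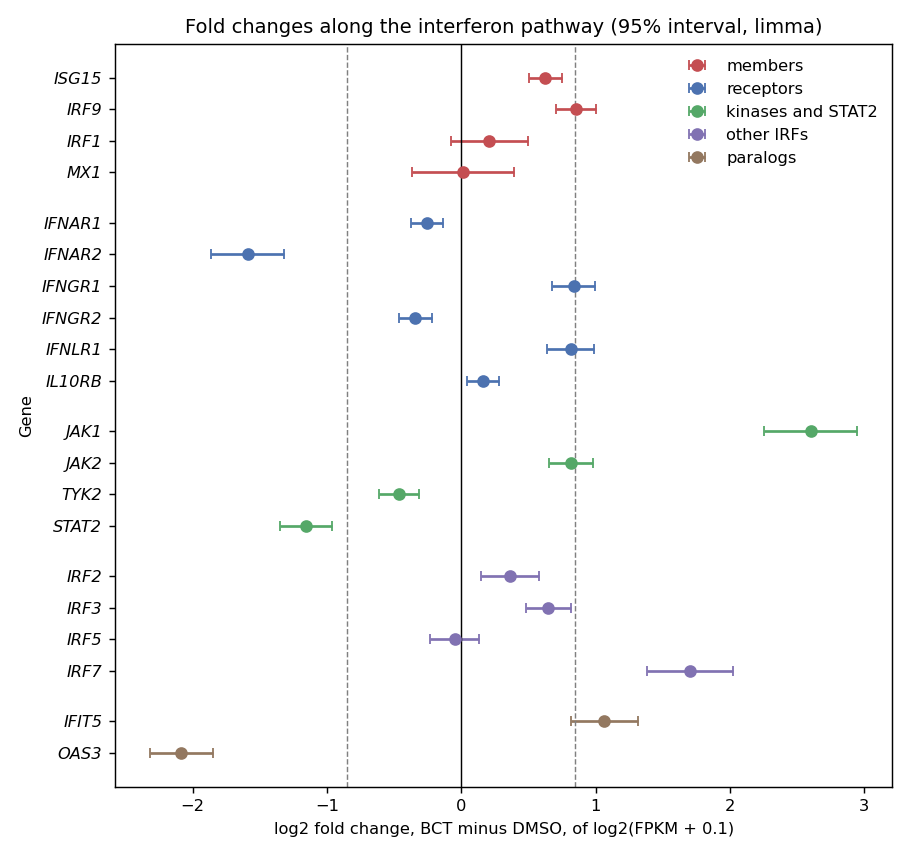
log2 fold change, BCT minus DMSO, of tested interferon pathway genes (points) with 95% intervals from limma (n = 3 each), coloured by role, and dashed lines at the fold change limit of 0.85 in each direction. JAK1 at 2.60 and IRF7 at 1.70 lie farthest to the right, and OAS3 at -2.08, IFNAR2 at -1.59 and STAT2 at -1.15 farthest to the left.

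Of the 8 interferon regulatory factors listed, 6 were tested and 2 of them were called higher, IRF9 and IRF7, with none lower. Of all genes tested, 13.9% were called higher and 17.8% lower. The median log2 difference of the list was 0.51, against -0.04 for all genes tested. IRF7, the factor that amplifies interferon alpha production, measured 2.105, 2.59 and 2.75 FPKM with DMSO and 6.85, 9.38 and 8.78 FPKM with BCT. The groups did not overlap, and IRF7 rose by 1.70 on the log2 scale (SE 0.14, adjusted p 7.77e-06). IRF3, which starts interferon beta transcription, measured 38.2 ± 1.296 FPKM with DMSO and 60.1 ± 5.85 FPKM with BCT, a log2 difference of 0.65 that was not called. IRF2 went from 4.87 to 6.30 FPKM (0.36) and IRF5 from 5.05 to 4.86 FPKM (-0.05, but 0.70 and 0.33 under the equal sums). IRF4 and IRF8, factors of blood cells, were at or under 0.098 FPKM in every sample. Under equal sums 5 of the 6 were called higher and without MIR6087 in the sum 3, beside 5614 and 3370 of all 12729 genes tested. The list's median was then 1.27 and 0.89, against all-gene medians of 0.72 and 0.34.

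Among the 11 listed genes of the IFIT, OAS and MX families, 3 were tested and 7 were below 0.2 FPKM on average. Of the 3 tested, 1 was called higher and 1 lower, beside 13.9% and 17.8% of all genes tested. IFIT5, a further RNA-binding IFIT protein, rose from 1.29 ± 0.10 FPKM to 2.81 ± 0.146 FPKM (SD, n = 3 each), by 1.06 on the log2 scale (SE 0.11, adjusted p 2.76e-05). It was not called with a pseudocount of 1 (0.73) or in the test against the limit. OAS3, the largest synthetase of the OAS family, fell by 2.08 on the log2 scale (SE 0.10, adjusted p 9.09e-07), from 7.76 ± 0.207 FPKM to 1.77 ± 0.233 FPKM, and kept its call under every scaling. OAS2 was at or under 0.056 FPKM in every sample, OASL went from a range of 0.033 to 0.090 FPKM to one of 0.211 to 0.431 FPKM, and MX2 from 0.317 to 0.502 FPKM to 0.823 to 0.934 FPKM, all below the filter. IFIT1B was listed at 0 throughout.

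The genes that join ISG15 to proteins were mostly low beside ISG15 itself. Of the 8 genes listed with it, itself included, 4 were tested. Among these, 1 was called lower and none higher, beside 17.8% and 13.9% of all genes tested. Under equal sums 3 were higher and none lower, and without MIR6087 in the sum 2 higher and none lower. Of all 12729 genes tested, 5614 and 3370 were called higher under these scalings. The list's median was then 1.14 and 0.76, against all-gene medians of 0.72 and 0.34. The activating enzyme of ISG15, UBA7, was at 0.064 to 0.118 FPKM in the DMSO samples and at 0.021 to 0.043 FPKM in the BCT samples. Its conjugating enzyme UBE2L6 was at 0.121, 0.117 and 0.118 FPKM with DMSO and at 0.082 FPKM or listed at 0 with BCT. The ligases HERC5 and HERC6 lay between 0.319 and 0.641 FPKM over the 6 samples, with overlapping groups for both. TRIM25, a ligase that can carry ISG15, fell by 0.92 on the log2 scale (SE 0.092, adjusted p 2.37e-05), from 16.4 ± 0.328 FPKM to 8.66 ± 1.18 FPKM (SD, n = 3 each). It was not called without BCT replicate 2 (-0.84), under either equal sum (-0.16 and -0.54) or in the test against the limit. ARIH1 measured 20.7 and 37.01 FPKM, a log2 difference of 0.84 that passed the limit without DMSO replicate 2 (0.88), without BCT replicate 1 (0.89), with median-ratio scaling (0.87), with quantile normalization (0.86) and under the equal sums (1.60 and 1.22). USP18, the protease that takes ISG15 off and also restrains IFNAR2, measured 18.8 FPKM with DMSO and 20.5 FPKM with BCT (0.12, adjusted p 0.0528), and its reads may be shared with near-identical copies.

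The broader set of 56 other antiviral interferon-stimulated genes showed calls in both directions, with more lower than higher in the values as deposited and more higher than lower under equal sums. Of these, 26 were tested, and 2 were called higher and 11 lower, beside 13.9% and 17.8% of all genes tested. The median log2 difference was -0.42 against -0.04 for all genes tested, with 18 of the 26 negative. The counts moved with the scaling. Under equal sums 8 were called higher and 2 lower, beside 5614 and 668 of all 12729 genes tested. Without MIR6087 in the sum 4 were higher and 6 lower, beside 3370 and 1208 of all genes. The list's median stayed below the all-gene median, at 0.34 against 0.72 under equal sums and -0.04 against 0.34 without MIR6087 in the sum. With median-ratio scaling and with quantile normalization 3 of the list were called higher and 11 lower. Of all 12729 genes tested, 1891 were then higher and 2127 lower with median-ratio scaling, and 1903 and 2003 with quantile normalization. Without a filter on low values 8 were called higher and 13 lower. ISG20, an exonuclease that degrades viral RNA, measured 6.38, 6.33 and 6.36 FPKM with DMSO and 37.7, 45.9 and 43.9 FPKM with BCT. The BCT samples were all far above the DMSO samples, and ISG20 rose by 2.72 on the log2 scale (SE 0.075, adjusted p 1.59e-07). SP110, a nuclear body protein, rose from 2.30 to 4.68 FPKM, by 0.998 on the log2 scale. It was not called with a pseudocount of 1 (0.79) or in the test against the limit.

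IFITM1, a membrane protein that blocks virus entry, fell by 2.87 on the log2 scale (SE 0.24, adjusted p 9.85e-06), from 5.01 ± 0.687 FPKM to 0.624 ± 0.267 FPKM (SD, n = 3 each). Its relative IFITM2 fell by 1.35 on the log2 scale, from 75.5 ± 2.05 FPKM to 29.7 ± 3.81 FPKM. BST2 (tetherin), which holds budding virus at the cell surface, went from 2.74 to 0.764 FPKM and fell by 1.71 on the log2 scale. SLFN11 went from 11.1 to 4.01 FPKM and fell by 1.45 on the log2 scale. CMPK2, a mitochondrial nucleotide kinase, went from 2.80 to 0.984 FPKM and fell by 1.45 on the log2 scale. IFITM1, BST2 and CMPK2 averaged under 1 FPKM with BCT, so they passed the filter on low values through their DMSO samples. Under equal sums IFITM2, SLFN11 and CMPK2 were no longer called (-0.58, -0.70 and -0.73), while IFITM1 and BST2 were. Of the 46 genes of this set with a promoter in the table, 29 held an ISRE-like match, among them ISG20, called higher, and IFITM1 and BST2, called lower.

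None of the 8 tested nucleic acid sensors and adaptors was called, beside 31.6% of all genes tested. Their median log2 difference was -0.19, and 5 of the 14 listed were below 0.2 FPKM on average. Under equal sums 2 were called higher (median 0.56, against 0.72 for all genes tested), and without MIR6087 in the sum 1 (0.19 against 0.34). Of all 12729 genes tested, 5614 and 3370 were called higher under these scalings. The cytosolic RNA sensors DDX58 and IFIH1 lay between 1 and 2 FPKM in both groups, with log2 differences of -0.16 and 0.26. MAVS, the adaptor below them, measured 8.51 FPKM with DMSO and 5.27 FPKM with BCT (-0.70, not called), and the kinase TBK1 24.2 and 33.6 FPKM (0.47, not called). Of 14 tested genes of MHC class I presentation, another interferon-induced group, 1 was called higher and 3 lower, beside 13.9% and 17.8% of all genes. Under equal sums 3 were higher and 1 lower, beside 5614 and 668 of all 12729 genes tested. Without MIR6087 in the sum 2 were higher and 1 lower, beside 3370 and 1208. The list's median was -0.34 as deposited, 0.42 under equal sums and 0.04 without MIR6087 in the sum. The all-gene medians were -0.04, 0.72 and 0.34. B2M, the light chain of MHC class I, fell by 1.09 on the log2 scale, from 323.6 ± 21.9 FPKM to 151.4 ± 6.41 FPKM (SD, n = 3 each). The proteasome activator PSME1 went from 226.4 to 102.0 FPKM and fell by 1.15 on the log2 scale, and the peptide transporter TAP2 went from 6.81 to 1.74 FPKM and fell by 1.94 on the log2 scale. Under equal sums B2M and PSME1 were not called (-0.33 and -0.38), nor under equal sums without MIR6087 (-0.71 and -0.77), nor B2M after quantile normalization (-0.76). HLA-B was called higher at 1.40, with reads that may be shared with other HLA genes. None of the 6 tested negative regulators was called, beside 31.6% of all genes tested, with a median of 0.21. Under equal sums 5 of them were called higher (median 0.98, against 0.72 for all genes), and without MIR6087 in the sum 2 (0.60 against 0.34). These stand beside 5614 and 3370 of all 12729 genes called higher. As deposited, their log2 differences were 0.47 for PIAS1, 0.30 for PTPN1, 0.56 for PTPN2, 0.13 for PTPN11 and 0.12 for USP18, with PTPN6 at -0.79 and past the limit without BCT replicate 1 (-0.90). SOCS1 and SOCS3, the feedback inhibitors of JAK kinases, were below the filter, SOCS1 at 0.165 to 0.337 FPKM with DMSO and 0.730 to 1.24 FPKM with BCT, and SOCS3 at most 0.231 FPKM in any sample.

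Over the 153 listed genes taken once, 18 were listed at 0 in all 6 samples and 57 were below 0.2 FPKM on average. Of the 76 tested, 7 were called higher and 18 lower, with a median log2 difference of -0.14. These lists hold the members too, and the counts are descriptions beside the 13.9% and 17.8% of all genes.

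The genes outside the lists whose pattern over the 6 samples was most like that of a member are given by Pearson's r on the log2 scale, as a description across 6 samples that share 2 groups. For ISG15 they were PSMA7 and SNRPC, each at 0.999, and 3023 of 12653 genes were above 0.95. For IRF9 they were MDM2 and PTPN14, each at 0.9998, with 3688 genes above 0.95. For IRF1 they were STAMBP (0.997) and IDI2 (0.995), with 45 genes above 0.95, and for MX1 USP35 (0.992) and NSL1 (0.981), with 4. ISG15 and IRF9 thus had many genes with a like pattern and MX1 had few.

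The label of a prostate epithelial line was checked against markers. The 5 luminal markers KRT8, KRT18, EPCAM, HOXB13 and CDH1 were all tested and added up to 841.0 to 850.4 FPKM in the DMSO samples and 1841 to 2030 FPKM in the BCT samples, where KRT8 and KRT18 were called higher. EPCAM (75.6 and 61.8 FPKM) and HOXB13 (90.1 and 66.3 FPKM) went the other way, lower in every BCT sample, with log2 differences of -0.29 and -0.45 that were not called. The directions of these markers and of those below are those of the values as deposited. They were not examined under equal sums, which moved the all-gene median from -0.04 to 0.72. The 7 leukocyte markers, among the usual sources of interferon, added up to 2.59 to 3.64 FPKM in the DMSO samples and 5.66 to 8.97 FPKM in the BCT samples, 6 of the 7 were under 1 FPKM on average, and CD68 was called higher. The 3 markers of plasmacytoid dendritic cells summed to at most 0.080 FPKM with DMSO and 0.358 FPKM with BCT, with IL3RA at 0 throughout. The 4 fibroblast markers added up to 2.52 to 2.66 FPKM in the DMSO samples and 5.83 to 6.97 FPKM in the BCT samples, with COL1A1 called higher at 1.95 and LUM lower in every BCT sample (1.01 and 0.574 FPKM), and the 3 endothelial markers to at most 0.051 FPKM in any sample. The part of these marker levels in the member values was not tested. In bulk RNA a change in cell number and a change in RNA per cell cannot be told apart.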

How the data were processed

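PolyA-selected RNA of 22RV1 cells (3 DMSO samples and 3 BCT samples) was sequenced with an unstranded kit. The authors trimmed and aligned the reads to hg19, and deposited 1 table of FPKM per sample and gene. The submitters' processing notes name CASAVA, Trimmomatic 0.38, HISAT2 and HTSeq. Per the study's methods, StringTie assembled the alignments and FPKM followed from that step. No read counts were used, so no counting interval was given. The study's methods state an average read number per sample, but the depth of each sample is unknown. From the low values, the samples' relative depth was 0.877 to 1 with DMSO and 1.05 to 1.14 with BCT.

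FPKM were taken as log2(FPKM + 0.1) where a gene's 6 samples averaged 1 FPKM or more, and fitted with limma 3.58.1 (R 4.3.3, trend, two-sided, Benjamini-Hochberg adjustment over all tested genes). A call needed an adjusted p under 0.05 and an absolute log2 fold change over 0.85. An exact permutation test of 3 against 3 samples cannot go below 0.1 and was not used. The fit was tested on simulated data. Alternatives were other pseudocounts, filters, scalings, moderation settings, a replicate block and each sample left out.

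The members and the 10 gene lists were chosen with earlier results of these data known. All members were named, with every gene of a list of up to 12 genes where its values are shown, up to 5 called genes per direction of each list, and the 2 genes most like each tested member. The ligands and the sensors and adaptors that are named fall outside that rule and were picked once their values had been seen. Some genes and 1 promoter are not reported here. Promoters were read from RefSeq (GRCh38.p14). Motifs were searched with Python 3.11.15.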

Additional observations from a re-analysis of the deposited data

How the results depend on the processing

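The scaling of the FPKM values was the choice that moved the most results. Under equal sums 6282 genes were called, 5614 higher and 668 lower, against 4027, 1764 and 2263 as deposited, and 3 members were called (ISG15 at 1.40, IRF1 at 0.93 and IRF9). Without MIR6087 in the sum 3370 genes were called higher and 1208 lower and 2 members were called (ISG15 at 1.01), and after quantile normalization 2 (ISG15 at 0.98). Under equal sums the log2 differences of IFNAR1 (0.51), IFNGR2 (0.42), TYK2 (0.30) and IRF5 (0.70) turned positive, and without MIR6087 those of IFNAR1 (0.13), IFNGR2 (0.044) and IRF5 (0.33) did. The cause was not tested. With a pseudocount of 1 IRF9 was at 0.73 and 0 members were called. In the test against the fold change limit IRF9, at 0.86, was not called, 0 members were, and 2425 genes were, 1033 higher and 1392 lower. Without a filter 2657 genes were called higher, and with a mean of at least 5 FPKM 1150, since other numbers of genes were tested.

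Leaving out each sample in turn gave 3834 to 4420 called genes, 0 to 1 members called, 0.83 to 0.89 for IRF9 and -0.043 to 0.12 for MX1. Of 78 results for the 4 tested members under the alternatives, 66 stayed on the same side of the threshold with the same sign, 5 lost and 4 gained the call, and 3 changed sign. Of 689 results for 35 other named genes these numbers were 634, 19, 29 and 7.

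Same-numbered samples deviated together with r of 0.116, 0.033 and 0.034, and BCT replicate 3 correlated best with DMSO replicate 2 (0.074), so the numbers were not taken as pairs. With the replicate block 1767 genes were called higher and 2266 lower, and no call of a member or list count changed. A count test with edgeR was not run, because the files used hold no reads. At least 5 FPKM left IRF1 and MX1 untested. The lack of read counts limits what can be said of the 4 members near 0.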
